A study of Mus musculus with 4 samples.

Results

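The TRIM (tripartite motif) ubiquitin ligases were followed in small-intestinal epithelial cells of WT mice and of IKKb(EE)IEC mice. The members were all non-control probes of the array whose listed gene name is Trim followed by a number, which gave 100 probes for 52 genes out of 41174 probes in all. Of these, 43 probes for 31 genes passed the filter set for every gene, a signal well above background on 2 or more of 4 arrays, against 16405 probes and 12446 genes in the whole series. The other 57 probes, among them every probe of 21 Trim genes, did not pass. The array lists Trim12, Trim30 and Trim34, which are Trim12a, Trim30a and Trim34a in RefSeq and are called so here.

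TRIM proteins share a RING finger, B-boxes and a coiled coil, and most act as E3 ubiquitin ligases whose C-terminal domain chooses the target. Many are induced by interferon and work in innate immunity, where they place ubiquitin chains on sensors of viral RNA or DNA, on adaptors, or on the kinase complexes that lead to NF-kB and to the interferon regulatory factors. Others have no known tie to interferon and act on chromatin, on the cytoskeleton or in muscle. The interferon-induced members on the array were set as Trim12a, Trim14, Trim21, Trim25, Trim26, Trim30a, Trim34a and Trim56, and the remaining 44 genes were taken as the other members.

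Total RNA of freshly isolated small-intestinal cells was labelled with Cy3 and hybridised to 1-colour Agilent arrays, with 2 biological replicates of WT and 2 of IKKb(EE)IEC. IKKb(EE)IEC mice carry a constantly active form of IKKb, the kinase that switches on NF-kB, in intestinal epithelial cells, and the WT mice were their littermates. The promoter that drives the transgene, the age, sex and strain of the mice and how many mice went into a sample are not stated in the labels. All 4 arrays lie on 1 slide, WT at positions 1 and 2 and IKKb(EE)IEC at positions 3 and 4, so position and genotype cannot be told apart.

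Levels are given as normalized log2 signal, that is log2 of the scanner's processed signal minus the array's own 75th percentile, and a log2 fold change is IKKb(EE)IEC minus WT with its standard error from limma. Between 34.3% and 41.1% of the spots were well above background, and with so few arrays the error of each value is wide. Ikbkb itself, the gene of the kinase, was at -0.72 and -0.27 in WT and at 0.33 and 0.34 in IKKb(EE)IEC, and its log2 fold change of 0.83 ± 0.21 had an adjusted p of 0.0551 in limma. No label states whether that probe reads the transgene. The 2 WT arrays correlated at 0.978 over the genes tested and the 2 IKKb(EE)IEC arrays at 0.994, so WT spread more. All 14 enterocyte markers measured were well above background on every array.

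Starts of 4 Trim genes of the cluster on chromosome 7 are shown because the cluster held both the Trim gene with the smallest adjusted p among those that rose and the only Trim gene that fell. In RefSeq (GRCm38.p6) the cluster runs Trim6, Trim34a, Trim5, Trim12a, Trim34b, Trim12c, Trim30b, Trim30c, Trim30a, Trim30d. Each line holds 70 bases before and 30 bases from the annotated start, read on the strand of the gene. Capitals mark the core of the interferon-stimulated response element (ISRE), searched on both strands as GAAA and GAAA with 2 bases of any kind between them, which reads as TTTC and TTTC on the other strand. The windows are chr7:104465164-104465263 on the minus strand for Trim30a, chr7:104315466-104315565 on the minus strand for Trim12a, chr7:104244387-104244486 on the plus strand for Trim34a and chr7:104218725-104218824 on the plus strand for Trim6.
Trim30a: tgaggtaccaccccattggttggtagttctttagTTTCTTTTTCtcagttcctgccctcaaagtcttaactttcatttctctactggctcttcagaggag
Trim12a: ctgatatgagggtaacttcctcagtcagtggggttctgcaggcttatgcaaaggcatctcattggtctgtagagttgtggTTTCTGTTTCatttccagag
Trim34a: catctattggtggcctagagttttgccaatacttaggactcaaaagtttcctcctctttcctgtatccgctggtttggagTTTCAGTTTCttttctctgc
Trim6: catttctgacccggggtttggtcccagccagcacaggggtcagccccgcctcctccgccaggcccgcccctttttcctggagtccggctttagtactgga

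The ISRE core began 36 bases before the start of Trim30a shown here, 2 bases after the other start that RefSeq gives for that gene, and 10 bases after the start of Trim12a and of Trim34a, and the Trim6 window held none. Over the full windows of the RefSeq table, from 250 bases before to 50 bases after a start, 22 of the 31 measured Trim genes had an entry. Of these, 5 held the ISRE core (22.7%), namely Trim12a, Trim26, Trim30a and Trim34a, which are 4 of the 6 interferon-induced members with an entry, and Trim2, which is 1 of 16 others. For comparison, the core stood in 318 of 8489 tested genes with an entry (3.75%) and in 11 of 20 interferon-stimulated genes (55.0%). A kappa-B site, the motif that NF-kB binds, stood in 2 of the 22 Trim genes, Trim28 and Trim46, against 8.27% of tested genes. A match of letters is a description of the window and not evidence of binding.

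Constant IKKb activity was accompanied by a rise of 3 Trim genes and a fall of 1. Trim30a, a feedback inhibitor of Toll-like receptor signalling to NF-kB, Trim56, a ligase of DNA and RNA sensing pathways, and Trim41, a ligase known for targeting protein kinase C, were higher in IKKb(EE)IEC. Trim6, which makes free ubiquitin chains that help to activate the interferon kinase IKKe, was lower. These 4 of 31 measured Trim genes (12.9%) compare with 15.1% of all genes tested at an adjusted p below 0.05 in limma (7.97% higher, 7.17% lower), so the family as a whole was called at about the rate of the array. The median log2 fold change of the 31 was -0.04, beside -0.12 over all genes tested, and 15 Trim genes had an unadjusted p below 0.05, 9 higher and 6 lower. Genotypes did not overlap for 23 of the 31, 11 of them higher and 12 lower, beside 69.1% of all genes (28.3% higher, 40.9% lower).

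Trim32, Trim41, Trim56 and Trim65 passed the filter through the IKKb(EE)IEC arrays alone, so the filter itself favours a higher value there. Over the 24 Trim genes well above background on every array, 1 was called higher, Trim30a, beside 583 of 10304 such genes in the whole series. Trim6, also among the 24, was called lower. The median of the 24 was -0.16, beside -0.17 over all such genes.

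The count of calls moved when an array was left out. Such a fit leaves 1 array in a genotype, which is assumed to vary like the other genotype, so the error comes from the remaining pair alone. Without WT replicate 1 it was 11 higher and 9 lower, and without WT replicate 2 it was 5 higher and 3 lower. Without IKKb(EE)IEC replicate 1 no Trim gene was called (3 higher and 2 lower at an unadjusted p below 0.05 in limma), and without IKKb(EE)IEC replicate 2 only Trim30a was. The share of all genes called moved with it, from 1.98% to 49.5%.

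The interferon-induced members did not move as a block. Of the 7 measured, 2 were called higher, Trim30a and Trim56, beside 7.97% of all genes tested. Trim56 passed the filter through the IKKb(EE)IEC arrays alone. None of the 7 was called lower (none at an unadjusted p below 0.05 in limma either), and 5 were not called. The median log2 fold change of the 7 was 0.20, with a range of -0.27 to 1.72. Over the 6 that were well above background on every array it was 0.09, with 1 called higher. The other 24 measured members gave 1 call in each direction, Trim41 and Trim6, with a median of -0.17 and a range of -0.98 to 1.79. The difference between both groups of members was not tested. Trim21, the cytosolic antibody receptor, was well above background on only 1 array, of IKKb(EE)IEC, and did not enter.

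**Figure D1:**
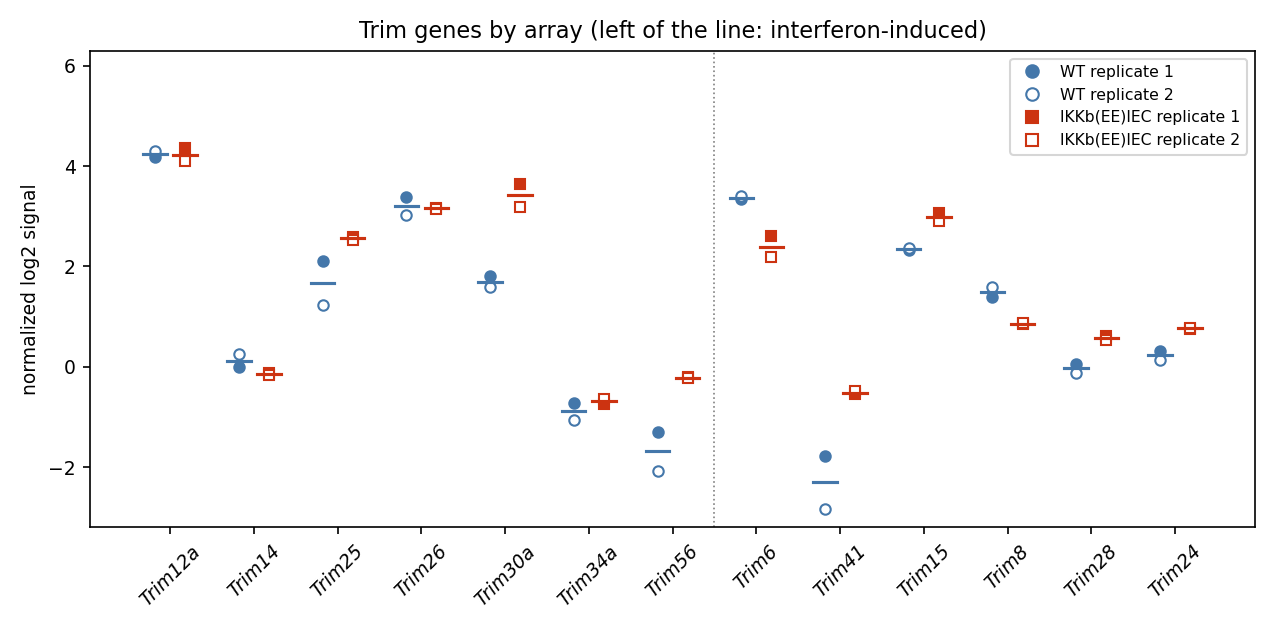
Normalized log2 signal of 13 Trim genes on each of the 4 arrays, WT as blue circles and IKKb(EE)IEC as red squares, with lines at the mean of each genotype and the 7 interferon-induced members left of the dotted line. Trim30a, Trim56 and Trim41 lie higher and Trim6 lower in IKKb(EE)IEC with no overlap, while Trim12a, Trim26 and Trim34a overlap.

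In normalized log2 signal, Trim30a was at 1.80 and 1.58 in WT and at 3.65 and 3.18 in IKKb(EE)IEC. Both IKKb(EE)IEC arrays lay far above both WT arrays, and the log2 fold change was 1.72 ± 0.22 with an adjusted p of 0.0122 in limma. The probe lies at chr7:104285477-104286054 (mm8). A second probe, 2.59 kb away, rose too (adjusted p = 0.0054 with each probe fitted in limma on its own). It read -1.43 and -1.61 in WT, where it was not well above background, and 1.46 and 0.80 in IKKb(EE)IEC, an estimated 6.28-fold higher. Such an estimate sets the bright genotype against the dim one. The dim arrays enter at their own lowest value well above background wherever the probe itself is lower. The result is not a lower limit, because a probe can fail the background flag at a higher value than that lowest one. Without IKKb(EE)IEC replicate 1 the log2 fold change of Trim30a was 1.49 with an adjusted p of 0.0992.

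Trim56 was at -1.30 and -2.07 in WT and at -0.20 and -0.23 in IKKb(EE)IEC. Its single measured probe (chr5:137396200-137396259, mm8) did not stand well above background in WT. Against that dim signal it was an estimated 2.77-fold higher in IKKb(EE)IEC (fitted log2 fold change 1.47 ± 0.28, adjusted p = 0.0322 in limma). The estimate was 3.61-fold without WT replicate 1 and 2.12-fold without WT replicate 2. The log2 fold change was 0.44 with the repaired normexp correction of background (adjusted p = 0.0442) and 0.42 from the authors' value table (adjusted p = 0.0423). Leaving out either IKKb(EE)IEC array left the log2 fold change at 1.45 and 1.48 and ended the call, with adjusted p of 0.169 and 0.170 in limma.

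Trim25, which puts ubiquitin on the RNA sensor RIG-I, was at 2.10 and 1.24 in WT and at 2.60 and 2.53 in IKKb(EE)IEC. The genotypes did not overlap, but the WT arrays lay apart, and the log2 fold change of 0.89 ± 0.31 had an adjusted p of 0.0978 in limma. Without WT replicate 1 it was 1.32 and without WT replicate 2 it was 0.46. A second probe gave 0.60 ± 0.21. Trim25 passed with a shift by the array median in place of the 75th percentile (0.95 ± 0.32, adjusted p = 0.0259 in limma). That fit gave every measured Trim gene the same standard error of 0.32. What brought the call there was not tested.

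The remaining interferon-induced members lay close together in both genotypes. Trim12a, a close relative of Trim5 in the chromosome 7 cluster, was at 4.18 and 4.30 in WT and at 4.36 and 4.10 in IKKb(EE)IEC. Its log2 fold change was -0.01 ± 0.18 (95% interval -0.47 to 0.44), and the IKKb(EE)IEC arrays lay on either side of the WT arrays. Trim26, a regulator of IRF3 and of mitochondrial antiviral signalling, was at 3.39 and 3.02 against 3.16 and 3.15, a log2 fold change of -0.05 ± 0.20 (95% interval -0.54 to 0.44). The sign of both turned with the scaling, to 0.04 for Trim12a and 0.01 for Trim26 with a median shift.

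Trim34a, named for a human relative that restricts retroviruses, was at -0.71 and -1.06 in WT and at -0.75 and -0.63 in IKKb(EE)IEC. The genotypes overlapped, with a log2 fold change of 0.20 ± 0.20 (95% interval -0.29 to 0.69). Neither of its further probes was well above background in WT, so both have only such an estimate, 1.26-fold and 1.89-fold higher in IKKb(EE)IEC. The latter probe is placed 89.1 kb away by the file (mm8), and its estimate was 3.16-fold without WT replicate 1 and 1.13-fold without WT replicate 2. In the files' coordinates that probe lies between the probes of Trim12a and that of Trim12c, where the RefSeq order has Trim34b. It is listed under Trim34, and which gene it reads was not tested. The cluster holds near copies of Trim34a, so signal of the probes listed under Trim34 may not be of 1 gene alone. Trim14, an adaptor without a RING finger, was at -0.01 and 0.25 in WT against -0.12 and -0.17 in IKKb(EE)IEC, a log2 fold change of -0.27 ± 0.18 (95% interval -0.72 to 0.18). It was the 1 interferon-induced member whose IKKb(EE)IEC arrays both lay below both WT arrays, and it was not called (adjusted p = 0.315 in limma).

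Of the 6 interferon-induced members with a promoter entry, the 4 that held the ISRE core had log2 fold changes of 1.72 (Trim30a), 0.20 (Trim34a), -0.01 (Trim12a) and -0.05 (Trim26). Trim56 and Trim25, whose windows held none, were at 1.47 and 0.89.

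**Figure D2:**
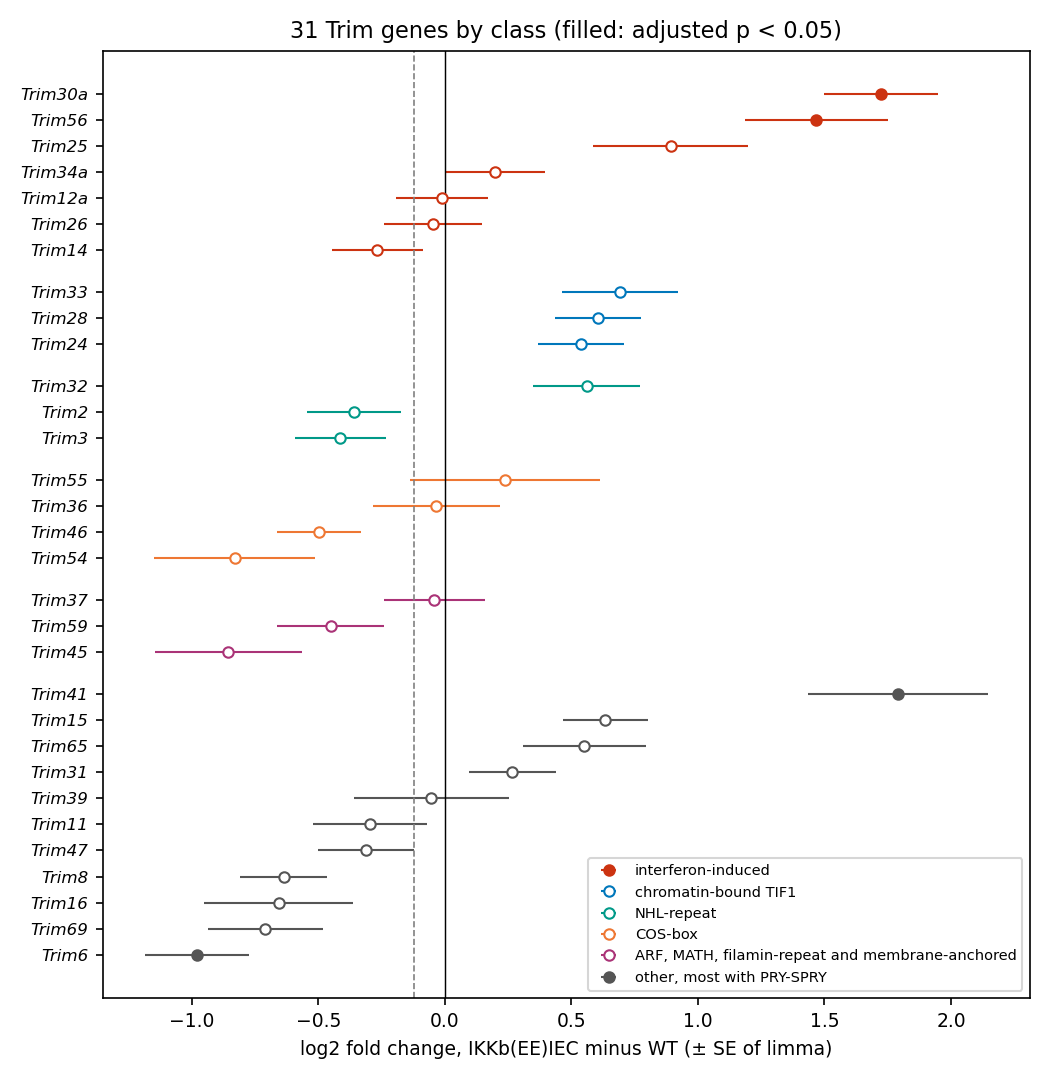
Log2 fold change (IKKb(EE)IEC minus WT) of the 31 measured Trim genes, grouped by class, with bars of 1 standard error of limma and filled points for genes at an adjusted p below 0.05. The dashed line is the median of all genes tested (-0.12), the 4 called genes lie at 1.47 or above or at -0.98, and the 3 TIF1 genes lie between 0.54 and 0.69.

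Among the other members, Trim41 was the 1 called higher. It was at -1.78 and -2.83 in WT, where the probe (chr11:48650069-48650128, mm8) did not clear background, and at -0.54 and -0.48 in IKKb(EE)IEC. It was an estimated 3.22-fold higher (fitted log2 fold change 1.79 ± 0.35, adjusted p = 0.0344 in limma). The estimate was 4.31-fold without WT replicate 1 and 2.40-fold without WT replicate 2. A second probe, 8.14 kb away, gave -3.26 and -2.41 in WT against -0.94 and -0.67 in IKKb(EE)IEC. It was an estimated 3.53-fold higher. Neither probe was well above background in WT, so the filter favours a higher value in both. Their shared direction is therefore no separate support. The log2 fold change was 0.41 with the repaired normexp correction (adjusted p = 0.0696), which ended the call, and 0.45 from the authors' value table (adjusted p = 0.0357). Leaving out either IKKb(EE)IEC array left it at 1.82 and 1.76 and ended the call here too, with adjusted p of 0.151 and 0.165 in limma.

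Trim6 was at 3.35 and 3.40 in WT and at 2.60 and 2.19 in IKKb(EE)IEC, so all IKKb(EE)IEC values lay below WT. The log2 fold change was -0.98 ± 0.20 with an adjusted p of 0.0379 in limma. Before the arrays were scaled, its processed signal was 615 and 697 in WT against 575 and 491 in IKKb(EE)IEC, a smaller gap than after scaling. The 75th percentiles of the IKKb(EE)IEC arrays, by which the signal is scaled, were 94.6 and 107.8, against 60.3 and 66.1 in WT. Without IKKb(EE)IEC replicate 1 the log2 fold change was -1.19 (adjusted p = 0.150), and without replicate 2 it was -0.77 (adjusted p = 0.316).

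The Trim6 call rests on 1 of 5 probes. The other 4 were not well above background on any array. One of these starts 12 bases further on, at chr7:104101981-104102040 (mm8), and shares 48 of the 60 bases of the probe that was measured, at chr7:104101969-104102028, in the files' coordinates. Its processed signal was 12.5 and 24.7 in WT against 24.9 and 22.8 in IKKb(EE)IEC, where the measured probe read 491 to 697. The cause of this disagreement was not tested.

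The TIF1 members, which bring repressors or ubiquitin to chromatin, gave no call among 3 measured genes, with a median log2 fold change of 0.61. Trim28, the corepressor of KRAB zinc finger proteins, was at 0.05 and -0.12 in WT and at 0.62 and 0.53 in IKKb(EE)IEC (log2 fold change 0.61 ± 0.17, adjusted p = 0.0668 in limma). Trim24, a cofactor of nuclear receptors, was at 0.32 and 0.14 against 0.75 and 0.78 (0.54 ± 0.17, adjusted p = 0.0844). Trim33, a ligase of the TGF-beta mediator Smad4, gave 0.69 ± 0.23 (adjusted p = 0.0901). In each of the 3 genes both IKKb(EE)IEC arrays were above both WT arrays, as in 28.3% of all genes tested. Trim66, the other TIF1 member, was not well above background on any array.

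Trim15 and Trim8 had the smallest p among Trim genes that were not called, in opposite directions. Trim15, a protein of focal adhesions, was at 2.33 and 2.37 in WT and at 3.06 and 2.90 in IKKb(EE)IEC (0.63 ± 0.17, adjusted p = 0.0592 in limma). It passed in the authors' value table with 0.64 (adjusted p = 0.0272). Trim8, which adds ubiquitin to the kinase TAK1 upstream of NF-kB, was at 1.40 and 1.59 in WT and at 0.84 and 0.87 in IKKb(EE)IEC (-0.64 ± 0.17, adjusted p = 0.0607).

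A second probe of Trim8, 1.11 kb away, went the opposite way. It read 0.85 and 0.17 in WT against 1.78 and 1.82 in IKKb(EE)IEC, a log2 fold change of 1.28 ± 0.26 with an adjusted p of 0.0352 when each probe was fitted in limma on its own. Set against the first probe, the second differed by -0.55 and -1.42 on the log2 scale in WT and by 0.93 and 0.94 in IKKb(EE)IEC. No direction can be given for Trim8 as a gene, and the files do not state the exon of either probe.

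**Figure D3:**
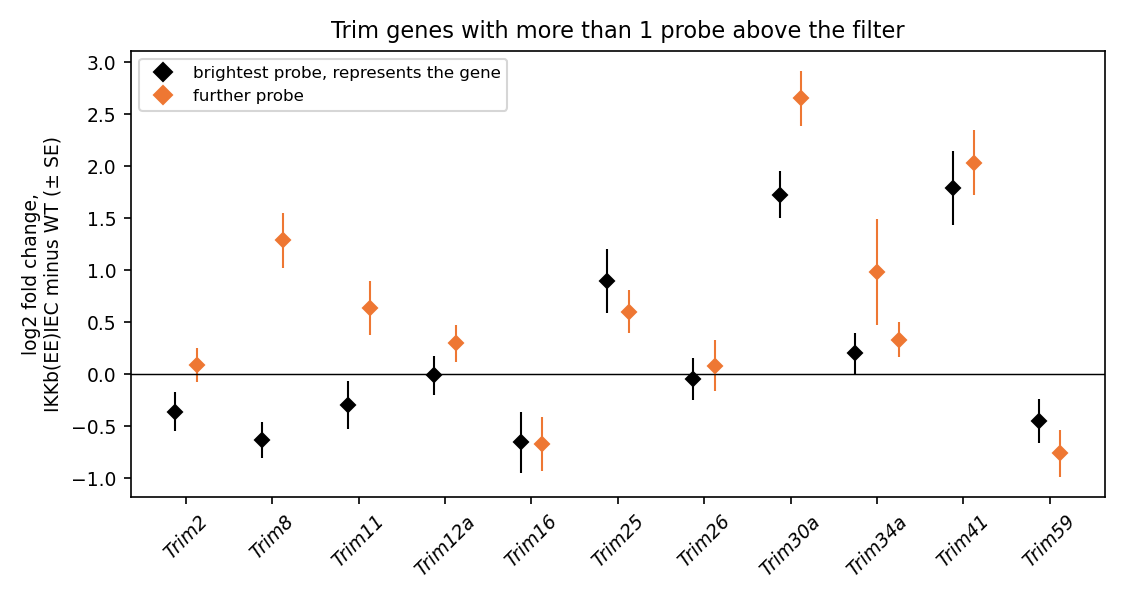
Log2 fold change (± standard error of limma) of every probe above the filter for the 11 Trim genes with more than 1, black for the brightest probe and orange for further probes. Both probes of Trim30a and of Trim41 lie above 1.7, while those of Trim8 lie on opposite sides of 0, at -0.64 and 1.28.

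Of the 11 Trim genes with more than 1 probe above the filter, 5 had probes of opposite sign, Trim2, Trim8, Trim11, Trim12a and Trim26, beside 29.7% of all genes with several such probes. In Trim12a, Trim26 and Trim2 the opposite probe was small, at 0.29, 0.08 and 0.09. Trim11, a ligase with a PRY-SPRY domain, gave -0.30 ± 0.23 and 0.64 ± 0.26 for its probes. Fitted probe by probe, 7 of the 43 Trim probes were called in limma, 6 higher and 1 lower, beside 13.9% of all probes (8.16% higher, 5.72% lower). The 6 were both probes of Trim30a, both of Trim41, the single one of Trim56 and the second of Trim8. Of these, the second of Trim30a, both of Trim41 and that of Trim56 passed the filter through the IKKb(EE)IEC arrays alone. For such probes the filter favours a higher value.

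No member of the NHL-repeat, COS-box or ARF, MATH, filamin-repeat and membrane-anchored classes was called. The NHL-repeat members, which bind RNA or cytoskeletal partners through a C-terminal propeller, gave -0.36 ± 0.19 for Trim2, -0.41 ± 0.18 for Trim3 and 0.56 ± 0.21 for Trim32. Trim32 was not well above background in WT, and its sign turned to -0.11 with the repaired normexp correction. The COS-box members, which bind microtubules, had a median of -0.26 over 4 genes, from -0.83 ± 0.32 for Trim54 to 0.24 ± 0.38 for Trim55. Both are known from the sarcomere of muscle, yet the probe of each was well above background on every array of these intestinal cells. Of 10 muscle markers, Des, Ckm, Myh2 and Cnn1 were not well above background on any array. The best probe of Myh1 and of Tnnt3 was well above background on 1 array. The 4 markers that were measured summed to 31.3 and 36.4 in WT against 31.2 and 32.1 in IKKb(EE)IEC on the linear normalized scale.

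Among the brightest probes of the measured Trim genes, that of Trim55 was also where the WT arrays lay farthest apart, at 6.12 and 5.04, around 5.65 and 5.97 in IKKb(EE)IEC. Its log2 fold change was 0.78 without WT replicate 1 and -0.30 without WT replicate 2. Trim45, Trim59 and Trim37, of the class with filamin repeats, a membrane anchor or a MATH domain, gave -0.86 ± 0.29 (adjusted p = 0.0949 in limma), -0.45 ± 0.21 and -0.04 ± 0.20.

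The last class holds 11 measured members, most with a PRY-SPRY domain, among them Trim41, Trim6, Trim15, Trim8 and Trim11, with a median log2 fold change of -0.30. Trim31, a ligase of the NLRP3 inflammasome, was high on every array (4.80 and 4.68 in WT, 5.08 and 4.93 in IKKb(EE)IEC) and gave 0.27 ± 0.17. Trim65, a ligase of the RNA sensor MDA5, gave 0.55 ± 0.24 from a probe not well above background in WT, and its sign turned to -0.06 with the repaired normexp correction. Trim69 gave -0.71 ± 0.23 (adjusted p = 0.0865 in limma), Trim16 gave -0.66 ± 0.30 with a second probe at -0.67, and Trim47 gave -0.31 ± 0.19. Trim39 was at -0.05 ± 0.31.

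The members that did not pass were Trim7, Trim9, Trim10, Trim13, Trim17, Trim21, Trim23, Trim27, Trim29, Trim35, Trim42, Trim44, Trim50, Trim52, Trim60, Trim61, Trim62, Trim63, Trim66, Trim67 and Trim68. Of their probes and the dim probes of measured genes, 55 were well above background on no array and 2, of Trim13 and Trim21, on 1 array. The lowest normalized value well above background was -2.84 and -2.62 in WT against -3.77 and -3.83 in IKKb(EE)IEC. These values set no limit for the dim probes, because a probe can fail the background flag at a higher value.

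Around the Trim genes, interferon-stimulated genes rose broadly. Of 26 measured members of a list of interferon signalling and interferon-stimulated genes, 17 rose, beside 7.97% of all genes tested. None fell (none at an unadjusted p below 0.05 in limma either), beside 7.17% of all genes tested. The median log2 fold change was 1.48, beside 0.20 for the 7 interferon-induced Trim genes. Over the 23 well above background on every array 15 rose, beside 583 of 10304 such genes in the whole series. Their median was 1.23, beside 0.09 for the 6 such interferon-induced Trim genes. Oas2, an activator of RNase L, was at -3.14 and -3.25 in WT and at 1.72 and 1.58 in IKKb(EE)IEC, an estimated 20.8-fold higher. Ifi44 was an estimated 18.7-fold higher, and neither gene was well above background in WT. Gbp3, a guanylate-binding protein, had a log2 fold change of 3.05 ± 0.19. Trim30a, at 1.72, lay above the list's median. Trim56 has only an estimate against a WT signal not well above background. The log2 fold changes of the other 5 interferon-induced Trim genes ran from -0.27 to 0.89.

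Some partners of TRIM proteins were called higher. The list of RNA and DNA sensing had a median of 0.56. Of its 10 measured genes, 2 were called, both higher, beside 7.97% of all genes called higher. These were Dhx58, the helicase LGP2, at 2.68 ± 0.24, and Ddx58, which encodes RIG-I, the target of Trim25, at 1.84 ± 0.20 (adjusted p = 0.0066 in limma). Of 9 genes of the TAK1 and linear ubiquitin machinery that leads to NF-kB, 2 were called, both higher, beside the same 7.97%. The median of the 9 was 0.39. Tnip1, an NF-kB-induced ubiquitin binder, was at 2.15 ± 0.17 and Rnf31, the catalytic subunit of the linear chain ligase, at 0.75 ± 0.16. Tab2, a known target of Trim30a, gave 0.66 ± 0.21 and was not called (adjusted p = 0.0854).

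The E2 enzymes that hand ubiquitin to TRIM ligases showed no call among 13 measured in limma (0 higher and 1 lower at an unadjusted p below 0.05), with a median of -0.07. The lower one at that level was Ube2e1, at -0.52. Of 4 TRIM family genes that carry other names, Mefv, the inflammasome protein pyrin, was called higher. It was an estimated 2.17-fold higher against a WT signal not well above background (fitted log2 fold change 1.12 ± 0.22, adjusted p = 0.0344 in limma). Pml, the core of nuclear bodies and itself interferon-induced, gave 0.56 ± 0.17, Mid2 gave 0.50 ± 0.16 and Mid1, a microtubule ligase, gave -0.97 ± 0.28, none of them called.

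**Figure D4:**
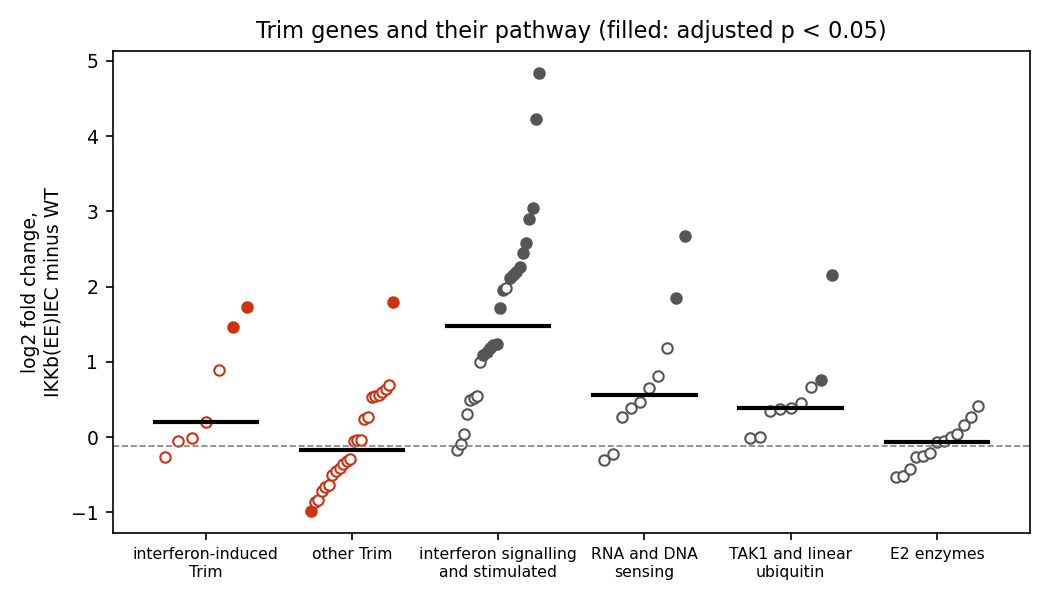
Log2 fold change (IKKb(EE)IEC minus WT) of the measured interferon-induced Trim genes (7), other Trim genes (24) and 4 lists of pathway genes, with filled points at an adjusted p below 0.05, black lines at each median and a dashed line at the median of all genes tested. The medians run from 1.48 for interferon-stimulated genes over 0.20 for interferon-induced Trim genes to -0.17 for other Trim genes.

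Some markers of other cells differed between the genotypes. Of 11 measured macrophage and dendritic cell markers, 6 were higher and none lower, with a summed normalized signal of 12.8 and 13.0 in WT against 35.6 and 28.7 in IKKb(EE)IEC. On each WT array 5 of the 11 were well above background, against all 11 in IKKb(EE)IEC, while Mrc1 and Cx3cr1 were below it on every array. None of the 6 called was above background on both WT arrays, and the 4 markers measured on every array, C1qb, Csf1r, Cd14 and Ptprc, had a median log2 fold change of 0.33 with 0 called higher. Of 9 T cell markers none was called in limma (1 higher and 2 lower at an unadjusted p below 0.05), with sums of 109 and 145 against 97.9 and 86.1. Of 3 B cell markers 2 fell, with Cd79a and Ms4a1 below background throughout. The 14 enterocyte markers summed to 13389 and 14222 in WT against 6972 and 7123 in IKKb(EE)IEC, with 1 called higher and 3 lower. The sum is dominated by the fatty acid binding proteins Fabp1 and Fabp2, both called lower with log2 fold changes of -1.35 and -1.56, while 9 of the 14 markers had a positive log2 fold change and the median was 0.15. Macrophages express several interferon-induced Trim genes, and the part of these cells in the rise of Trim30a and Trim56 was not tested. In bulk RNA, a change in the number of cells of a type and a change in RNA per cell cannot be told apart.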

How the data were processed

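The deposited scanner files hold spot intensities of Agilent Feature Extraction 9.5.3.1 (design 014868), per the file headers, background-subtracted within each array, with a substituted value for dim spots. The authors also deposited a value table of 40913 probes as linear intensities, with equal medians on all arrays and the normalization not stated. Other columns used are flags of the spots, per the file headers. Coordinates are mm8 and mark the probe.

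From log2 processed signal the 75th percentile of the array was subtracted, outlier spots were left out, and spots of a probe were averaged. Probes well above background on at least 2 arrays entered, and the brightest probe represented a gene. RefSeq accessions named 24375 probes. Genotypes were compared with lmFit and eBayes (limma 3.58.1, R 4.3.3, two-sided, Benjamini-Hochberg over 12446 genes, threshold 0.05), a procedure tested on simulated data. With 2 against 2 arrays there are 3 splits, so no permutation p can go below 33.3%. Arrays give no counts. The 13 alternatives planned and 1 added later were refitted.

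Per-array values were set out for interferon-induced members, called members and the 4 further members with the smallest p, and from other lists up to 3 called genes. Genes named beyond that (Trim33, Trim31, Trim55, Tab2, Ube2e1, Ddx58 as a Trim25 target) were chosen after their values were seen. Members and lists were chosen with earlier results of these data known.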

Additional observations from a re-analysis of the deposited data

How the results depend on the processing

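Leaving out an array leaves 1 in that genotype, and the error then comes from the other genotype's pair. Leaving out 1 array at a time gave 0 to 11 Trim genes higher and 0 to 9 lower, 0 to 3 interferon-induced members higher with a median log2 fold change of 0.05 to 0.37, and 0 to 8 other members higher and 0 to 9 lower with a median of -0.31 to -0.10. The planned normexp correction called no gene of the array in limma (0 Trim genes higher and 0 lower, also at an unadjusted p below 0.05), with 0 interferon-induced and 0 other members higher, 0 other members lower and a median of -0.020 for the others. Its fit placed the mean background at -104 and -372.7 on 2 arrays, each with 4 spots below local background. The repaired form, chosen after seeing the data, left such spots out of that fit and called 6 higher, 3 of them among the others, whose median was -0.10. It moved the median of all genes from -0.12 to -0.01.

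Without a filter, 1 Trim gene was higher and 0 were lower, 1 interferon-induced and 0 other members higher, 0 others lower, with medians of 0.54 and -0.39. With all 4 arrays required above background, 1 interferon-induced member was higher and 2 Trim genes were lower, both among the others, whose median was -0.34. The authors' value table and the fit of each probe alone gave 2 others higher each, with medians of -0.011 and -0.047. The mean of a gene's probes gave medians of 0.50 for interferon-induced and -0.037 for other members. The former was the value of Trim34a, whose mean takes in the probe placed 89.1 kb away.

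Signs turned only for genes that were not called. The mean of a gene's probes gave 0.32 for Trim8, 0.17 for Trim11, 0.14 for Trim12a and 0.018 for Trim26. The repaired correction gave 0.29 for Trim12a, 0.23 for Trim26, -0.11 for Trim32, 0.11 for Trim37 and -0.061 for Trim65, and normexp as planned gave 0.020 for Trim11, 0.038 for Trim36 and 0.051 for Trim39. The median shift gave 0.043 for Trim12a, 0.0078 for Trim26, 0.021 for Trim36, 0.014 for Trim37 and 0.0012 for Trim39. Quantile normalization gave 0.090 for Trim12a and 0.0048 for Trim36. The authors' table gave 0.14 for Trim12a, 0.069 for Trim26, 0.063 for Trim36 and 0.011 for Trim39. With 1 array left out, the log2 fold change ran across 0 for Trim12a (-0.14 to 0.12), Trim26 (-0.23 to 0.14), Trim36 (-0.34 to 0.28), Trim37 (-0.24 to 0.15), Trim39 (-0.48 to 0.37) and Trim55 (-0.30 to 0.78).

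Over the alternatives that gave a value, Trim30a ran from 1.27 to 2.19, Trim41 from 0.33 to 2.31, Trim56 from 0.31 to 1.85 and Trim6 from -1.19 to -0.64, all in 1 direction. Calls were lost for Trim30a in 2 of 14, for Trim41 in 5 of 13, for Trim56 in 4 of 13 and for Trim6 in 4 of 14. The cause was not tested. With the replicate number as a block, the count stayed at 3 higher and 1 lower and no call changed. Samples of the same number correlated at 0.108 in their deviations, and the labels do not say that the number pairs them.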

Other observations

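Some Trim genes stand on the array under older names that do not start with Trim, and their accessions lead to Trim symbols in RefSeq. Trim30d, at the end of the chromosome 7 cluster beside Trim30a, had 2 probes above the filter. The brighter read 2.05 and 1.35 in WT against 1.86 and 1.16 in IKKb(EE)IEC, a log2 fold change of -0.19 ± 0.34. The other read -1.34 and -2.59 in WT, not well above background, and -0.44 and -0.70 in IKKb(EE)IEC. It was an estimated 2.63-fold higher, and it was not called in limma with each probe fitted on its own (adjusted p = 0.0758). Probes of Trim5, Trim12c, Trim30b, Trim80 and Trim43c were not well above background on any array.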
